A study of Mus musculus with 15 samples.

Results

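Of 8996 peaks of the retinal transcription factor NRL, 139 (1.55%) were annotated by the authors to a microRNA gene as the nearest gene. They were chosen by gene symbol alone, as every peak whose symbol was a numbered Mir gene or a let-7 gene, host genes included, and the choice used no measured value. The 139 peaks carried 107 symbols, of which 92 had 1 peak, 8 had 2 and 7 had 3 or more. Host transcripts of microRNAs held 16 peaks under 4 symbols (Mir124a-1hg, Mir124-2hg, Mir9-3hg and Mir22hg). "Nearest" here is a matter of distance in the annotation and says nothing of what a peak controls.

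Peaks came from CUT&RUN, in which an antibody brings a nuclease to its target protein in permeabilised cells and the DNA beside the protein is released and sequenced. An anti-NRL antibody was used on 250000 dissociated retinal cells per experiment, from C57BL/6J mice at postnatal day 2 (P2), 4 (P4), 10 (P10) and 28 (P28), and the labels name no mutant allele and no treatment. The labels list 15 libraries, of which 8 have values in the quantitation table, 2 at each age: at P10 these are replicates 1 and 4, and at the other ages replicates 3 and 4. Where 2 values are given for an age, they stand in that order. Whole retina was used, so a change in the share of rods among the cells and a change in NRL signal per rod cannot be told apart. Whether 2 replicates of an age stem from different animals is not in the labels. P-values therefore cover only how far these libraries differ, and that spread may be technical.

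NRL is a Maf-family basic leucine zipper protein that directs photoreceptor precursors to the rod fate and stays on in mature rods, which are born mostly around birth in the mouse and mature over the next weeks. MicroRNAs are short RNAs, cut from hairpins in longer primary transcripts by Drosha with Dgcr8 and then by Dicer1, and loaded into Argonaute proteins, where the seed at bases 2 to 8 selects target messages. In the retina, the cluster of miR-183, miR-96 and miR-182 is abundant in photoreceptors and needed for their upkeep, miR-124 is abundant in neurons, and miR-9 and let-7 are known for their part in timing in progenitors.

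Reads in peaks ranged from 49430 to 227692 per library, and the median member held 4 to 17 reads. Values are RPKM, reads per kilobase of peak width divided by a scale for each library, rebuilt here with each peak's own width. At the median peak width, 3 reads come to 1.16 to 1.77 RPKM. Log2 values of the replicates of an age correlated across peaks with Pearson r of 0.599, 0.736, 0.887 and 0.707 in order of age, and peaks are not independent replicates. P4 replicate 4 was above P4 replicate 3 in 115 of the 139 members (82.7%) and in 83.9% of all peaks, so many P4 values come as a low and a high one. Markers of cell types were matched by the symbol the authors gave each peak. This describes where NRL peaks lay and is no check of which cells were in the sample. By this, 9 of 9 rod markers had a peak within 50 kb, 1 of 5 cone markers (Gnat2), 1 of 4 amacrine and ganglion markers (Slc6a9), 1 of 3 pigment epithelium markers (Mitf), and no bipolar, Müller glia, microglia or vessel marker among 4 each. The symbols miss 1 of the Müller glia markers, Glul, the gene of glutamine synthetase, whose start lies under a peak that the annotation gives to Mir8114.

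The mature sequences of the microRNAs beside which the results turn are shown with the seed, bases 2 to 8, in capitals. Of the 107 symbols, 94 matched an entry of the RefSeq microRNA table (GRCm38.p6). The cluster next to the strongest member comes first, because its 3 products have seeds that share most of their letters.
miR-183-5p: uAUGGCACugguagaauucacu
miR-96-5p: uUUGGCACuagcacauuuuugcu
miR-182-5p: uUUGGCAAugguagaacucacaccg

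A pair of seeds was held by members at separate places in the genome. miR-103-3p and miR-107-3p share the seed GCAGCAU and come from introns of the pantothenate kinase genes Pank3 and Pank1, and their other arms share GCUUCUU. let-7a-5p and let-7k share GAGGUAG.
miR-103-3p: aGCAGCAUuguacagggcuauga
miR-107-3p: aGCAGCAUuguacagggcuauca
let-7a-5p: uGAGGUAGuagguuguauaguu
let-7k: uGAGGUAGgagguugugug

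The following are the products of the hairpins nearest to peaks that changed most or that stayed called when any 1 library was left out. No mature sequence is shown for the miR-124 hosts, Mir598 or Mir3078.
miR-144-3p: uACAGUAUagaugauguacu
miR-138-5p: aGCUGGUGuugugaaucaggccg
miR-148a-3p: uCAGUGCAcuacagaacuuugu
miR-378b: cUGGACUUggagucagaaga
miR-7056-3p: cCUCACCUgucucccaccacag
miR-6934-5p: uUGGUGGAgacagcaagggugg
miR-6995-5p: cUGGGAGUagaagggggaaacca
miR-3089-5p: uGAGUUCAgggacagcgugucu
miR-7008-5p: uGUGGGAGaugccaggagccguac
miR-205-5p: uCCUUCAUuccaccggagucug

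Members lay farther from annotated starts than other NRL peaks did. Of the members, 35 (25.2%) were within 1 kb of the start of their gene, against 56.8% of all peaks, and the median distance was 8796 bp against 126 bp. By the authors' annotation, 48 members were intronic, 40 distal intergenic, 32 in promoters, 14 exonic and 5 in a 3' UTR. For 87 of the 89 symbols that could be compared, the authors' gene bounds lay within 5 bp of the RefSeq hairpin, so the "start" of such a gene is the end of the hairpin and not the start of its primary transcript. The plot of list presence and distance shows both sets side by side.

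**Figure D1:**
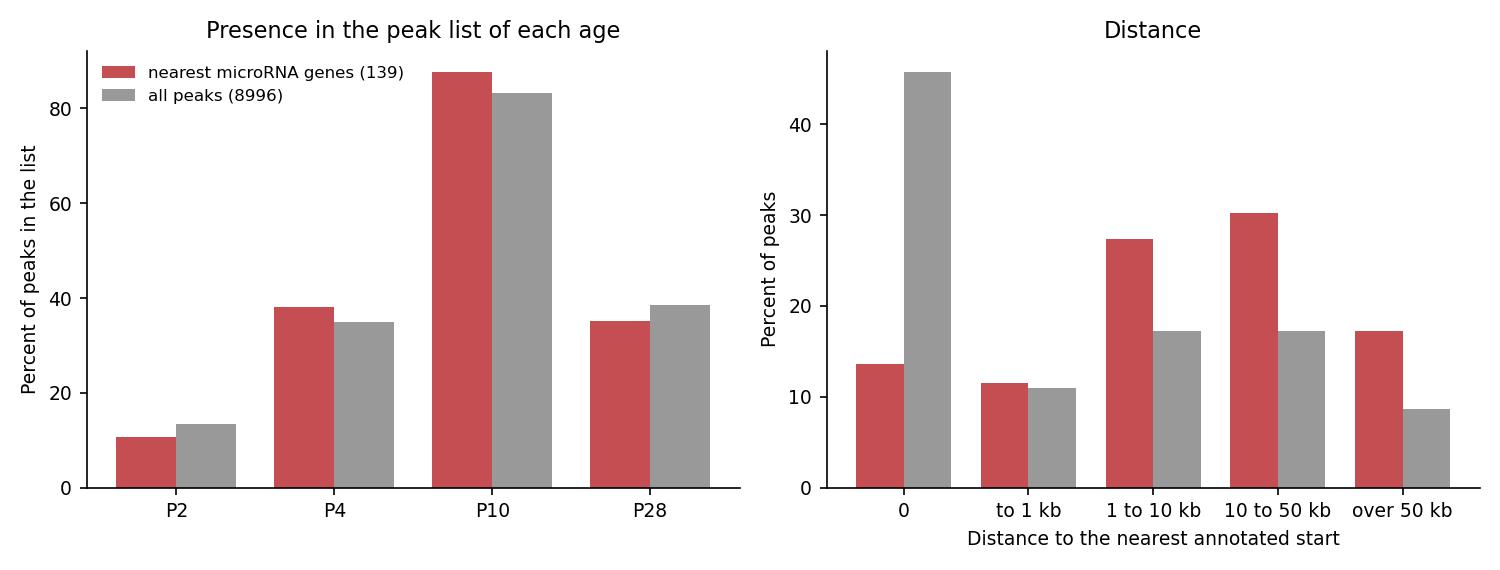
Left, percent of peaks found in the authors' peak list of each age, for the 139 peaks nearest microRNA genes (red) and all 8996 peaks (grey). Right, percent of peaks by distance to the nearest annotated start (0 means overlapping it); 13.7% of members overlap a start against 45.8% of all peaks.

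Many members were beside or within another gene. Of the 139, 71 lay inside a RefSeq protein-coding gene and 25 inside a gene of a long noncoding RNA. Among the 35 members within 1 kb of the start of their gene, 13 lay within 1 kb of a protein-coding start, and 11 of these overlapped it. The 13 members that overlapped a hairpin were at Mir8114, Mir3091, Mir5625, Mir7075, Mir5133, Mir132, Mir6928, Mir8101, Mir5627, Mir8098, Mir1945, Mir1894 and Mir5136. All were promoter peaks in the annotation, which follows from taking the short hairpin as the gene. Most of these hairpins sit at the start of a protein-coding gene, such as Mir3091 at Rps21 (a ribosomal protein), Mir7075 at Terf2 (a telomere-binding protein), Mir8101 at Hdac5 (a histone deacetylase), Mir5627 at Dnajb9 (an endoplasmic reticulum chaperone) and Mir1945 at Gspt1 (a translation termination factor). For such peaks the microRNA and the protein-coding gene cannot be told apart as the nearest gene in a functional sense.

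Every member was in at least 1 of the authors' 4 peak lists, as was every peak of the table. A peak held by the list of 1 age alone is thus likely to be high at that age. List presence is therefore no separate support for a call. The lists of P2, P4, P10 and P28 held 15, 53, 122 and 49 of the members, that is 10.8, 38.1, 87.8 and 35.3%, against 13.5, 35.0, 83.2 and 38.6% of all peaks. The P10 list alone held 61 members (43.9% against 41.9% of all peaks). All 4 lists held 6 members: Mir182, Mir22hg, Mir8098, Mir2137, Mir124-2hg peak 6 and Mir1894 peak 2. Each age has 1 list, so these shares have no replicate error. The mean over the libraries of an age was highest at P10 in 113 members (81.3%, against 70.4% of all peaks), at P4 in 14, at P28 in 10 and at P2 in 2. Members lay away from starts more often than all peaks did, and the P10 share was not taken for such peaks alone.

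The miR-183 cluster had 5 peaks around it, 4 annotated to Mir183 and 1 to Mir182, and all 5 had their highest mean at P10. The Mir182 peak (chr6:30147116-30147470) lay in an intron of Nrf1, the gene of a factor that controls respiratory chain genes, 18522 bp past the start of the miR-182 hairpin. Its level was 41.2 and 62.2 at P2, then 52.2 and 105 at P4, then 201 and 139.5 at P10, and 72.9 and 89.0 at P28. It ranked 3rd of all 8996 peaks by mean over the 8 libraries and was in the lists of all 4 ages. The P10 pair stood above every other library, and no comparison passed the test (log2 difference 1.16, SE 0.55, adjusted p = 0.132 for P10 against P4, and -1.05 (adjusted p = 0.166) for P28 against P10, which was 0.25 in the values as deposited).

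The 4 Mir183 peaks lay from 2977 to 8796 bp upstream of the miR-183 hairpin, along and before the host transcript Mirc35hg. Mir183 peak 1 (chr6:30172714-30172967), nearest to the hairpin, had 3.97 and 6.74 at P2, then 4.50 and 18 at P4, then 52.1 and 42.7 at P10, and 17.7 and 18.7 at P28. Mir183 peak 2 (chr6:30174017-30174429) had 2.44 and 1.38 at P2, then 2.46 and 12.1 at P4, then 21.4 and 17.8 at P10, and 8.25 and 7.14 at P28. It covered all of the 300-base window around the start of Mirc35hg, and was in the P10 list only. Mir183 peak 3 (chr6:30174797-30175467), upstream of that start, had 5.82 and 4.25 at P2, then 10.8 and 21.1 at P4, then 28.9 and 20.6 at P10, and 8.31 and 8.54 at P28. Mir183 peak 4 (chr6:30178533-30178756) had 4.50 and 6.79 at P2, then 1.13 and 15.3 at P4, then 34.5 and 36.8 at P10, and 9.68 and 12.4 at P28. In each of the 4 the P10 pair was above both P28 libraries, and in peaks 1, 2 and 4 it was above every other library.

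Peaks 1 and 4 rose from P4 to P10 (log2 difference 2.24, SE 0.59, adjusted p = 0.0122, and log2 difference 2.63, SE 0.69, adjusted p = 0.0157). For peak 1 the call was lost without P4 replicate 3, P10 replicate 1 and P10 replicate 4 (adjusted p up to 0.138), and for peak 4 without P4 replicate 3, P10 replicate 1 and P10 replicate 4 (adjusted p up to 0.135). Mir183 peak 2 had a log2 difference of 1.61 (adjusted p = 0.0557) and peak 3 one of 0.66 (adjusted p = 0.381). None of the 5 was called between P10 and P28, where their log2 differences ran from -1.61 to -1.05.

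The promoter window of Mirc35hg is shown because it is the annotated start nearest to the cluster and lay wholly under Mir183 peak 2. It runs from 250 bases before to 50 after the start, on the minus strand of chr6:30174076-30174375 (RefSeq, GRCm38.p6). Capitals mark a match at position 130 to TGANTCA, a loose form of the AP-1 site in which N is any letter. The middle letter of this match is A, and whether it is an AP-1 site was not tested.
Mirc35hg promoter: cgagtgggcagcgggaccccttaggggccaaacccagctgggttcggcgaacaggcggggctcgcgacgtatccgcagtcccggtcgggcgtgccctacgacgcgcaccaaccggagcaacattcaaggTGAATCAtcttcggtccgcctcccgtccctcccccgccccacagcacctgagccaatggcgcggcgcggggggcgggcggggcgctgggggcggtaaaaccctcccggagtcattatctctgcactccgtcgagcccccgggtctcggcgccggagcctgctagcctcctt

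The letters of 4 motifs were searched on both strands in the RefSeq promoter windows that members overlapped. TGCTGA, the core of the Maf site, was in 2 of 21 such windows (at Slc35f6 and Stx5a) and in 19.5% of all 32851 windows. The match at Slc35f6 lay in the part of the window outside the peak, and that at Stx5a under the peak. Some of the 21 windows overlap each other at 1 gene, as at Rps21 and Terf2. TGCTGAC, which contains TGCTGA, was in 0 of 21 and in 4.67% of all. TGANTCA was in 1 of 21, that of Mirc35hg, and in 7.81% of all, and TAATCC, a homeobox site of the kind bound by CRX, was in 0 of 21 and in 7.06%. A match is a description of letters and not of binding, and members away from these windows could not be read.

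**Figure D2:**
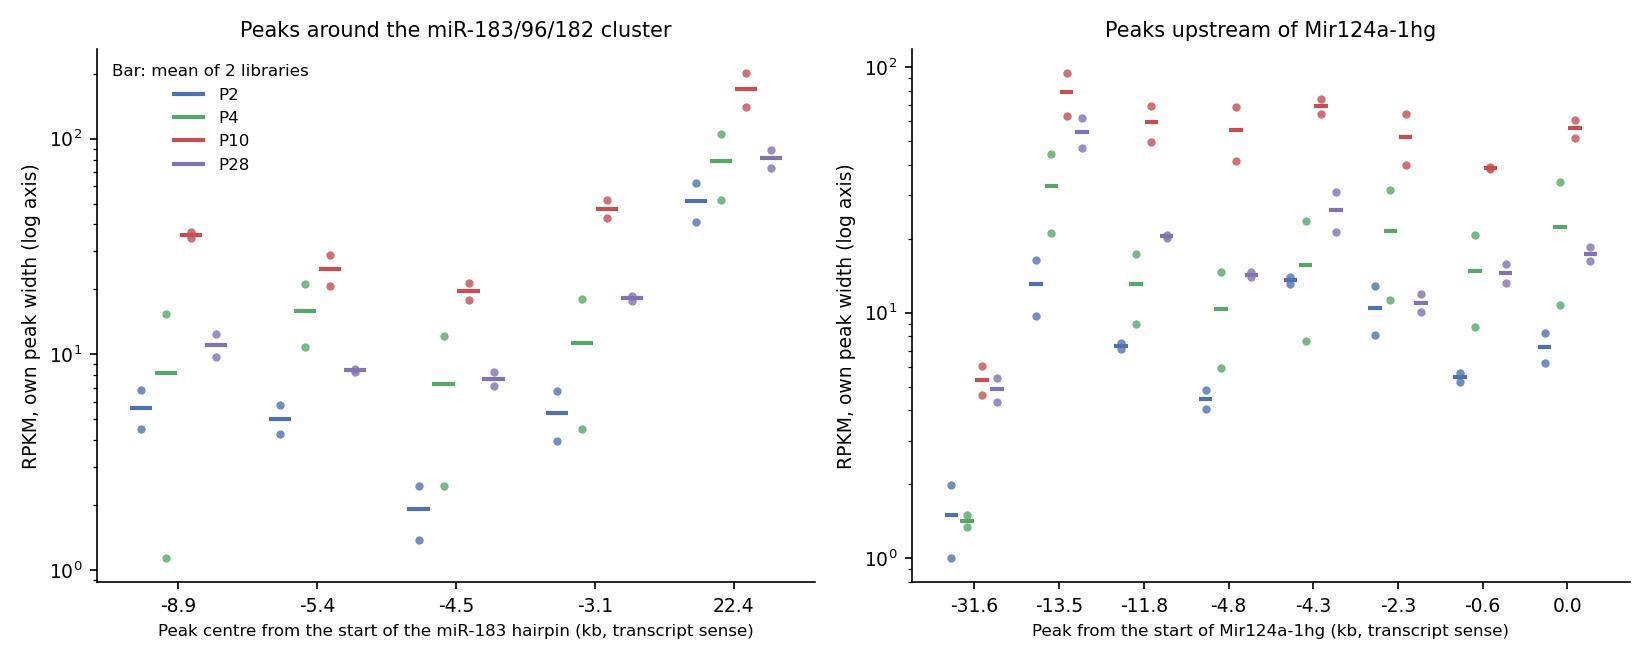
RPKM (log axis) in each library at the 5 peaks around the miR-183 cluster (left, by distance in kb of the peak centre from the start of the miR-183 hairpin) and at the 8 peaks of Mir124a-1hg (right, by distance from its start), coloured by age, with bars for the mean of 2 libraries. The P10 mean is the highest of the 4 ages at all 13 peaks, and in the right panel the highest value is 94.0 RPKM, in 1 library at the peak 13.5 kb upstream of Mir124a-1hg.

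The 2 host genes of miR-124 carried 14 peaks, and the mean was highest at P10 in all 14. Both P10 libraries were above both P4 libraries in 14 of 14, and above both P28 libraries in 12 of 14. Across all peaks, 58.9% had both P10 libraries above both P4 libraries, and 61.7% had both P28 libraries below both P10 libraries. The test called 7 of the 14 higher at P10 than at P4, beside 15.6% of all peaks, and 5 lower at P28 than at P10, beside 20.7%. Among all peaks more than 1 kb from a start, where most of the 14 lay, these shares were 26% and 36%. The peaks of a host share its neighbourhood and are not replicates of each other.

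Mir124a-1hg had 8 peaks over the 31608 bp up to its start. Peak 8 (chr14:64587843-64588328), over the start itself, had 6.22 and 8.22 at P2, then 10.7 and 34.1 at P4, then 61.0 and 51.4 at P10, and 18.5 and 16.2 at P28. Peak 7 (596 bp upstream) had 5.21 and 5.69 at P2, then 8.76 and 20.7 at P4, then 38.4 and 39 at P10, and 13.2 and 15.8 at P28. Peak 6 (2289 bp upstream) had 8.11 and 12.8 at P2, then 11.3 and 31.5 at P4, then 64.3 and 39.8 at P10, and 11.9 and 10.0 at P28. At these 3 the P10 pair was the highest, and P4 replicate 4 was the next library down. Peak 8 fell from P10 to P28 (log2 difference -1.64, SE 0.57, adjusted p = 0.0416), as did peak 6 (log2 difference -2.11, SE 0.57, adjusted p = 0.0116). Peak 7 was called in none of the 4 pairwise comparisons, though by the F test over all ages (adjusted p = 0.00475).

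Peaks 5 and 4 of Mir124a-1hg lay side by side, 4281 bp and 4844 bp upstream. Peak 5 had 13.1 and 14.0 at P2, then 7.70 and 23.5 at P4, then 74.3 and 64.3 at P10, and 30.9 and 21.3 at P28. Peak 4 had 4.84 and 4.07 at P2, then 5.97 and 14.7 at P4, then 68.7 and 41.6 at P10, and 14.6 and 14.0 at P28. Both rose from P4 to P10, peak 5 by a log2 difference of 2.27 (adjusted p = 0.00962) and peak 4 by 2.38 (adjusted p = 0.00613). Peak 4 then fell (log2 difference -1.83, SE 0.56, adjusted p = 0.0212), whereas for peak 5 the difference was -1.40 (adjusted p = 0.077). Whether the 2 peaks differ in this was not tested.

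The other 3 peaks of Mir124a-1hg lay farther out. Peak 3 (11767 bp upstream) had 7.10 and 7.50 at P2, then 8.94 and 17.3 at P4, then 69.2 and 49.6 at P10, and 20.1 and 20.8 at P28. Peak 2 (chr14:64574165-64574593, 13458 bp upstream) had 9.69 and 16.4 at P2, then 21.0 and 44.3 at P4, then 94.0 and 63.4 at P10, and 46.9 and 62.2 at P28, the highest level of the locus. Peak 1 (31608 bp upstream) had 1.99 and 1.00 at P2, then 1.34 and 1.5 at P4, then 6.08 and 4.60 at P10, and 5.43 and 4.31 at P28, the lowest of the locus. Peak 3 rose from P4 to P10 (log2 difference 2.14, SE 0.54, adjusted p = 0.00989), as did peak 1 (log2 difference 1.38, SE 0.46, adjusted p = 0.0389). Peak 2 was called only for P28 against P2, where it was higher (log2 difference 2.01, SE 0.56, adjusted p = 0.0202) and all libraries from P4 on stood above both P2 libraries. Each of the 8 calls at this host was lost when some 1 library was left out, with largest adjusted p-values from 0.127 to 0.262.

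Mir3078 (chr14:64597761-64597900), on the far side of the same host start, had 1.80 and 8.15 at P2, then 1.81 and 8.16 at P4, then 13.5 and 14.3 at P10, and 1.11 and 2.34 at P28. It fell from P10 to P28 (log2 difference -2.49, SE 0.61, adjusted p = 0.00707), with 28 reads against 3 and a scaled ratio of 8.16 (exact 95% interval 2.52 to 42.0). P2 replicate 4 and P4 replicate 4 stood apart from their partners at this peak, by more than 4 times.

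Mir124-2hg had 6 peaks, 1 over its start and 5 upstream by up to 464703 bp. Peak 6 (chr3:17793600-17794072), over the start, had 3.19 and 6.84 at P2, then 4.03 and 15.1 at P4, then 50.0 and 40.9 at P10, and 11.5 and 19 at P28, was in all 4 lists and rose from P4 to P10 (log2 difference 2.36, SE 0.59, adjusted p = 0.00975). Peak 2 (chr3:17591305-17591481), 198440 bp upstream and inside the noncoding gene Gm30340, had 1.42 and 1.07 at P2, then 2.87 and 5.65 at P4, then 49.0 and 47.2 at P10, and 8.75 and 3.70 at P28. Peak 3, just beside it (chr3:17591643-17591761), had 1.06 and 1.60 at P2, then 0 and 0 at P4, then 15.9 and 12.6 at P10, and 2.60 and 2.75 at P28. Peaks 2 and 3 were in the P10 list alone, with P10 values above those of every other library by more than 4 times. Their presence in that list is no separate support for this height.

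These neighbours had the largest differences of log2(RPKM + 1) of all members from P4 to P10, whereas by the ratio of reads Mir378b peak 2 and Mir103-1 were above peak 2. Peak 3 had 24 reads at P10 against 0 at P4 (log2 difference 3.92, SE 0.44, adjusted p = 1.45e-05). The exact 95% interval of its scaled ratio had a lower limit of 6.24. With 3 reads taken as the floor over the P4 libraries the ratio was 8.29, which is not a lower limit. Peak 2 had 122 reads against 11 (log2 difference 3.27, SE 0.54, adjusted p = 0.000613). Both fell from P10 to P28, peak 2 by a log2 difference of -2.86 (adjusted p = 0.00102) and peak 3 by -2.04 (adjusted p = 0.00272). The calls of peak 2 in both comparisons, and that of peak 3 at P10, were kept without any 1 library. The fall of peak 3 was lost without P10 replicate 1 (adjusted p up to 0.0643).

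The other 3 peaks of Mir124-2hg were called in none of the 4 comparisons, and peak 1 was called by the F test (adjusted p = 0.00762). Peak 1, the most distant, had 3.21 and 3.64 at P2, then 4.85 and 12.3 at P4, then 22.1 and 24.2 at P10, and 7.40 and 8.86 at P28. Peak 4 (169171 bp upstream) had 6.14 and 5.57 at P2, then 8.67 and 8.36 at P4, then 16.1 and 19.5 at P10, and 11.3 and 7.19 at P28. Peak 5 (2593 bp upstream) had 1.36 and 1.47 at P2, then 1.77 and 2.21 at P4, then 4.88 and 3.09 at P10, and 3.12 and 2.28 at P28. Peaks 1 and 4 were highest in the P10 pair, and the 3 had P4 to P10 log2 differences from 0.72 to 1.45.

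miR-9, known from neural progenitors, had a peak at Mir9-2 and 1 at the host Mir9-3hg. Mir9-3hg (chr7:79527900-79528265, 50 bp from its start) had 4.47 and 3.64 at P2, then 6.94 and 19.5 at P4, then 19.4 and 22.2 at P10, and 1.27 and 1.79 at P28. It fell from P10 to P28 (log2 difference -3.11, SE 0.55, adjusted p = 0.000652; 110 reads against 7), a call kept without any 1 library, and both P28 libraries were below all 6 others. Mir9-2 had 2.19 and 1.32 at P2, then 1.10 and 5.46 at P4, then 7.95 and 9.11 at P10, and 6.74 and 4.84 at P28, with a P10 pair above the rest and a log2 difference at P28 of -0.50 (adjusted p = 0.507). Whether the 2 miR-9 loci differ in this was not tested.

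The miR-22 host Mir22hg (chr11:75461197-75461841) had a peak over its start in all 4 lists, at 7.22 and 6.49 at P2, then 7.88 and 13.5 at P4, then 23.7 and 17.4 at P10, and 5.52 and 5.08 at P28. It fell from P10 to P28 (log2 difference -1.76, SE 0.53, adjusted p = 0.0213), a call lost without P10 replicate 1, P10 replicate 4, P28 replicate 3 and P28 replicate 4 (adjusted p up to 0.219). The hairpin of miR-132, a neuronal microRNA induced by activity, lay under a peak with 2.03 and 0 at P2, then 1.36 and 6.14 at P4, then 9.32 and 5.37 at P10, and 4.16 and 5.28 at P28. That of miR-210, known from hypoxia, lay 0.212 kb from one with 2.67 and 4.04 at P2, then 2.94 and 3.31 at P4, then 4.26 and 7.47 at P10, and 3.59 and 4.42 at P28. Neither was called in any of the 4 comparisons.

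Mir181a-1 had 2 peaks in the noncoding gene Gm4258. Peak 1 had 2.28 and 2.87 at P2, then 2.69 and 3.45 at P4, then 7.14 and 4.90 at P10, and 0.936 and 1.98 at P28 and fell from P10 to P28 (log2 difference -1.53, SE 0.46, adjusted p = 0.0212). Peak 2 (chr1:137927937-137928139) was among the stronger members, at 5.58 and 12.2 at P2, then 11.3 and 21.8 at P4, then 33.4 and 45.5 at P10, and 8.39 and 23.4 at P28, and was called by the F test (adjusted p = 0.033) but in none of the 4 comparisons (for P28 against P10, -1.40 (adjusted p = 0.0874)). Its P28 libraries were far apart, with replicate 3 near the P2 level and replicate 4 near the higher P4 value.

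Mir29c, in the 3' UTR of Cd46, had 4.03 and 0 at P2, then 2.03 and 2.29 at P4, then 7.56 and 6.99 at P10, and 9.91 and 5.24 at P28 and was higher at P28 than at P2 (log2 difference 1.88, SE 0.59, adjusted p = 0.0405), on 12 reads against 4 and with an exact interval of the ratio that includes 1 (0.955 to 13.4). let-7 genes had 3 peaks. Mirlet7a-1 peak 1 had 3.43 and 5.82 at P2, then 4.32 and 7.77 at P4, then 3.75 and 2.97 at P10, and 3.69 and 2.78 at P28. Mirlet7a-1 peak 2 had 1.08 and 2.44 at P2, then 2.71 and 3.97 at P4, then 3.70 and 2.93 at P10, and 2.98 and 3.15 at P28. Mir7k, the gene of let-7k, had a peak with 3.39 and 4.27 at P2, then 3.42 and 8.32 at P4, then 5.65 and 5.59 at P10, and 3.47 and 0.734 at P28. The 3 let-7 peaks were not called in the 4 comparisons, and at each of them the highest library was P4 replicate 4.

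Of the miR-30 and miR-26 genes, Mir30a had 0.908 and 1.37 at P2, then 1.60 and 3.09 at P4, then 4.26 and 2.92 at P10, and 4.19 and 3.54 at P28. Mir30d had 4.27 and 0.759 at P2, then 4.82 and 8.55 at P4, then 10.1 and 7.72 at P10, and 5.57 and 5.88 at P28. Mir26b had 1.80 and 0.544 at P2, then 1.09 and 2.45 at P4, then 5.85 and 2.85 at P10, and 3.98 and 3.74 at P28. None of the 3 was called, by the F test either, and at all 3 the P28 pair lay above both P2 libraries, as at 52.5% of all peaks.

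The first comparison over all members, P4 against P2, gave no call: 0 of 139 members and 0% of all peaks in either direction, with limma. At an unadjusted p under 0.05, 28 members (20.1%) were higher and 2 (1.44%) lower, beside 14.4% and 0.778% of all peaks. With limma-voom the recovered reads gave 0 calls too. Without P4 replicate 3, 20 members were called higher. The members' median log2 difference was 0.53 beside 0.48 over all peaks. Both P4 libraries were above both P2 libraries in 58 members (41.7%, beside 40.1% of all peaks) and below them in 4 (2.88%, beside 3.91%).

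Between P4 and P10, 28 members (20.1%) rose and 5 (3.60%) fell, beside 15.6% and 1.51% of all peaks. Among peaks more than 1 kb from a start, 23 of 104 members rose and 5 fell, beside 26% and 3.24% of all such peaks. The median log2 difference was 0.94 in the members and 0.73 over all peaks, so the whole table moved up at P10. Both P10 libraries were below both P4 libraries in 8 members (5.76%, beside 6.31% of all peaks). With each library centred on its own median, 11 members were higher and 6 lower. Only the rises of Mir124-2hg peaks 2 and 3, Mir378b peak 2 and Mir598 peak 1 were kept without any 1 library. Every other rise from P4 to P10 was lost when at least 1 library was left out. Leaving out P10 replicate 1 gave 6 calls and P10 replicate 4 gave 13, while leaving out P4 replicate 3 gave 8 and P4 replicate 4 gave 67.

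Between P10 and P28, 44 members (31.7%) fell and 0 rose, beside 20.7% and 1.29% of all peaks, and 3 (2.16%) were higher at an unadjusted p under 0.05, beside 3.01% of all peaks. Away from starts the members' share was 35 of 104, beside 36% of all such peaks. The median log2 difference was -1.05 in the members and -0.69 over all peaks. After centring, 24 members were lower and 5 higher. The count of calls was 16 without P10 replicate 1, 20 without P10 replicate 4, 28 without P28 replicate 3 and 27 without P28 replicate 4.

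From P2 to P28, 5 of the 104 members away from starts were higher and 6 lower, beside 12% and 6.43% of all such peaks. Over all members, 6 (4.32%) were higher and 6 (4.32%) lower, beside 9.64% and 3% of all peaks, with a median of 0.55 beside 0.57. After centring these were 3 and 13, and the count of calls was 6 without P28 replicate 4 and 30 without either P4 library. An F test over the ages called 86 members (61.9%), beside 45.9% of all peaks (38 members when P10 replicate 1 was left out, 43 when P10 replicate 4 was). The 4 comparisons together called 69 members under 54 symbols. Over all peaks 38.5% were called in any of the 4. Of the members, 14 (10.1%) rose at P10 and fell at P28, beside 6.44% of all peaks. Neither this share nor those of the F test and of the 4 comparisons together were taken for peaks away from starts alone.

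**Figure D3:**
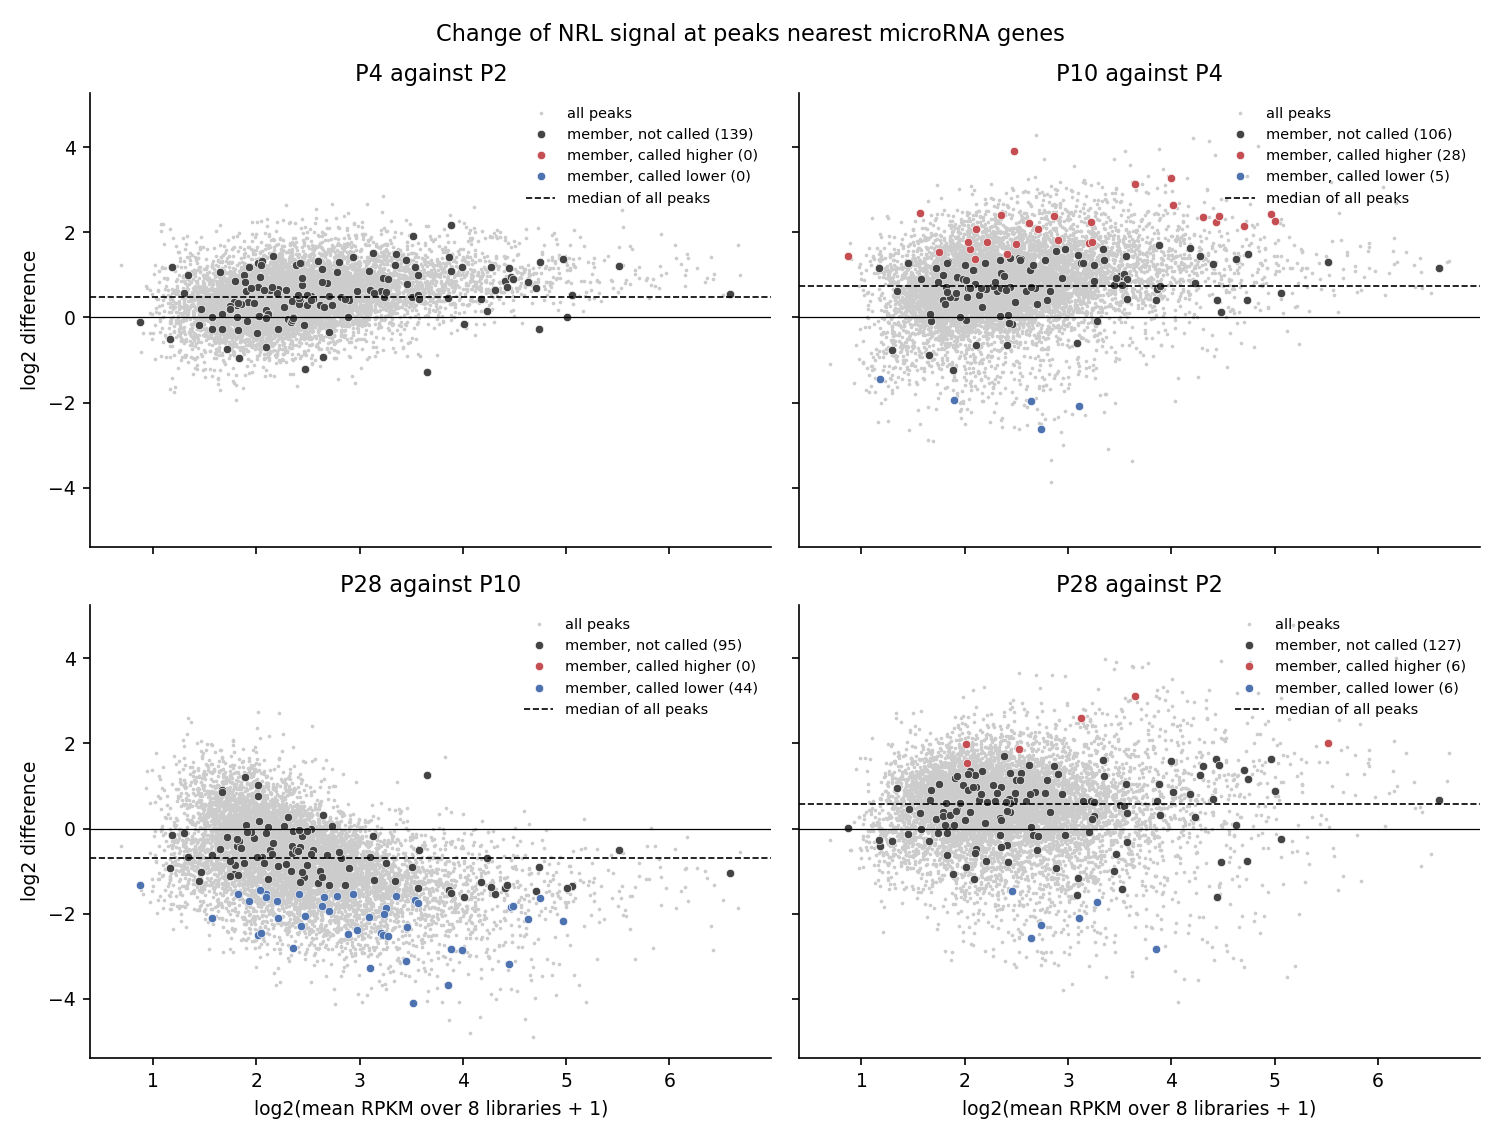
Log2 difference against log2(mean RPKM over 8 libraries + 1) for each comparison, with all peaks in grey, members not called in that comparison in black, members called higher in red and called lower in blue; the dashed line is the median of all peaks. Called members lie on both sides only for P10 against P4 (28 higher, 5 lower) and P28 against P2 (6 and 6), and the 44 called members of P28 against P10 all lie below 0.

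One group rose at P10 and fell again by P28. From the miR-124 hosts it held Mir124-2hg peaks 2 and 3 and Mir124a-1hg peak 4. It also held 3 peaks in introns of Xkr6, the gene of a protein of the XK family, around Mir598. Mir598 peak 2 (chr14:63700316-63700521) had 3.67 and 6.46 at P2, then 8.63 and 23.6 at P4, then 87.2 and 77.5 at P10, and 15.8 and 19.1 at P28. Mir598 peak 1 (chr14:63696079-63696254) had 2.15 and 1.08 at P2, then 1.44 and 1.62 at P4, then 13.4 and 11.3 at P10, and 0.880 and 0.930 at P28. Mir598 peak 3 (chr14:63745130-63745312), on the other side of the hairpin, had 0.688 and 3.12 at P2, then 1.39 and 9.36 at P4, then 23.2 and 21.8 at P10, and 1.69 and 5.37 at P28. At all 3 both P10 libraries stood above the other 6, and peak 2 reached 87.2 RPKM.

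The rises at P10 were 2.40 (adjusted p = 0.00172), 2.44 (adjusted p = 0.00605) and 2.24 (adjusted p = 0.0234) for peaks 1, 2 and 3 on the log2 scale. The falls at P28 were -2.81 (adjusted p = 0.000374), -2.18 (adjusted p = 0.00895) and -2.51 (adjusted p = 0.0103). Peak 1 kept both calls without any 1 library, on 31 reads against 2 at P10 and P28. Peak 2 lost its rise without P10 replicate 1 or P10 replicate 4, and its fall without either of these or P28 replicate 3. Peak 3 lost its rise without P4 replicate 3, P10 replicate 1 or P10 replicate 4, and its fall without P10 replicate 1 or P28 replicate 3.

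The hairpins of miR-103 and miR-107, whose seeds are the same, each had a peak in the intron of the Pank gene that hosts them. Mir103-1 (chr11:35779634-35779816, Pank3) had 0.688 and 0 at P2, then 0.694 and 0 at P4, then 7.75 and 4.77 at P10, and 0 and 1.79 at P28. Mir107 (chr19:34847197-34847671, Pank1) had 0.265 and 0.401 at P2, then 0.535 and 0 at P4, then 2.65 and 2.10 at P10, and 0.326 and 0.345 at P28. Both rose at P10 and fell at P28 by the test, on few reads, and Mir107 ranked 8995th of the 8996 peaks by mean. Mir103-1 had 16 reads against 1 for P10 and P4, a ratio of 16.6 (exact 95% interval 2.58 to 695), and Mir107 had 16 reads against 2, a ratio of 8.29 (exact 95% interval 1.95 to 74.3). At P28 against P10 the log2 differences were -2.09 (adjusted p = 0.00675) and -1.33 (adjusted p = 0.0319). Both calls of both peaks were lost without P10 replicate 1 (adjusted p up to 0.271).

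Other peaks of this course lay in or beside protein-coding genes. Mir6976, in an intron of Srf (serum response factor), had 5.36 and 2.02 at P2, then 2.70 and 9.12 at P4, then 21.8 and 17.9 at P10, and 4.94 and 3.48 at P28. Mir1947, in Lmln, had 2.52 and 3.81 at P2, then 0.847 and 4.76 at P4, then 17.9 and 9.15 at P10, and 2.06 and 3.27 at P28. Mir6417, in a RefSeq model of Ppargc1a (a coactivator for mitochondrial genes) and distal intergenic for the authors, had 2.95 and 3.18 at P2, then 2.12 and 11.5 at P4, then 19 and 21.3 at P10, and 2.07 and 3.83 at P28. In these 3 both P10 libraries were the highest. The rises at P10 were 1.76 (adjusted p = 0.0351), 2.08 (adjusted p = 0.0123) and 1.76 (adjusted p = 0.0389). The falls at P28 were -2.01 (adjusted p = 0.0148), -1.93 (adjusted p = 0.0147) and -2.45 (adjusted p = 0.00516), of which that of Mir6417 was kept without any 1 library.

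Mir153, in Ptprn2, had 0.831 and 0 at P2, then 1.68 and 2.83 at P4, then 9.36 and 8.24 at P10, and 0 and 2.16 at P28. Mir1945 peak 2, between genes, had 1.41 and 2.13 at P2, then 3.19 and 2.39 at P4, then 13.2 and 6.97 at P10, and 2.60 and 2.74 at P28. Mir6390, also between genes, had 0 and 0.767 at P2, then 2.05 and 1.15 at P4, then 10.8 and 5.53 at P10, and 1.87 and 2.64 at P28. All 3 rose at P10, by log2 differences of 1.5 to 1.78, and had differences of -2.46 to -1.44 at P28, on low reads: Mir153 had 38 reads against 4, Mir1945 peak 2 50 reads against 12 and Mir6390 28 reads against 7 for P10 and P28.

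Another group rose at P10 with no call at P28. Mir378b peak 2 (chr11:88404340-88404580), in an intron of Msi2, the gene of an RNA-binding protein, had 2.09 and 3.16 at P2, then 0 and 1.19 at P4, then 13.7 and 10.3 at P10, and 23.8 and 38 at P28. It rose at P10 (log2 difference 3.13, SE 0.54, adjusted p = 0.00083) on 41 reads against 2, a ratio of 21.2 (exact 95% interval 5.52 to 181.3). It was also higher at P28 than at P2 (log2 difference 3.12, SE 0.54, adjusted p = 0.000642; 93 reads against 8), and both calls were kept without any 1 library. The P28 pair stood above the P10 pair, with 1.27 (adjusted p = 0.0899).

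Mir6988, in an intron of Syvn1 (an endoplasmic reticulum ubiquitin ligase), had 1.11 and 1.68 at P2, then 1.12 and 3.79 at P4, then 16.7 and 14.3 at P10, and 5.48 and 5.79 at P28. Mir1968, in Grtp1, had 0.515 and 2.33 at P2, then 0.779 and 3.21 at P4, then 12.9 and 10.7 at P10, and 5.38 and 5.36 at P28. Mir6403, in Man1c1, had 1.15 and 3.47 at P2, then 1.54 and 5.64 at P4, then 14.4 and 12.5 at P10, and 6.12 and 6.97 at P28. The rises were 2.37 (adjusted p = 0.0037), 2.22 (adjusted p = 0.00631) and 1.81 (adjusted p = 0.0268), with both P10 libraries above the other 6 in each. Mir5624, in an intron of Arsb, had 1.87 and 1.41 at P2, then 1.26 and 3.54 at P4, then 10.1 and 8.96 at P10, and 3.83 and 6.08 at P28. Mir7044, in Rasgef1a, had 1.79 and 2.02 at P2, then 0.901 and 2.02 at P4, then 5.59 and 9.29 at P10, and 2.2 and 5.22 at P28. Their rises were 1.72 (adjusted p = 0.0196) and 1.78 (adjusted p = 0.0158).

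Mir704 peak 1, between genes, had 0.821 and 0.620 at P2, then 1.24 and 0.930 at P4, then 5.13 and 4.88 at P10, and 2.02 and 3.20 at P28. Mir6915, in an exon of Ankrd52, had 0.677 and 1.02 at P2, then 2.73 and 0 at P4, then 5.08 and 10.1 at P10, and 0.833 and 6.16 at P28. They rose by 1.53 (adjusted p = 0.022) and 2.09 (adjusted p = 0.0314). At Mir6915 the libraries of 1 age differed widely, with 1 P28 library above 1 P10 library. The 2 calls and those of the 5 peaks before them were all lost without P10 replicate 1, with a largest adjusted p between 0.057 and 0.264 over the libraries left out.

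A further group fell from P10 to P28 without a call at P10. The largest fall was at Mir144, the gene of an erythroid microRNA, whose nearest peak lay in the 3' UTR of Flot2 (chr11:78057021-78057325, 15680 bp upstream of the hairpin). It had 2.48 and 3.12 at P2, then 7.49 and 22.9 at P4, then 21.7 and 24.9 at P10, and 1.02 and 0 at P28. The P28 libraries held 2 and 0 reads (log2 difference -4.10, SE 0.56, adjusted p = 8.71e-05; scaled ratio 45.1 (exact 95% interval 12.2 to 377)). P4 replicate 4 lay between the P10 libraries.

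Mir138-1, a microRNA known from neurons, had a peak 15048 bp upstream (chr9:122667548-122667828) with 8.07 and 17.6 at P2, then 11.3 and 24.4 at P4, then 20.8 and 24.0 at P10, and 1.10 and 0.583 at P28. All 6 libraries up to P10 were above both P28 libraries. It fell from P10 to P28 (log2 difference -3.67, SE 0.56, adjusted p = 0.000233; ratio 26.5 (exact 95% interval 8.80 to 131)) and was lower at P28 than at P2 (log2 difference -2.83, SE 0.56, adjusted p = 0.00204).

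Mir6934 had 3 peaks in and beside Tbc1d16, the gene of a Rab GTPase-activating protein. Peak 2 (chr11:119144972-119145372), in its 3' UTR, had 11.3 and 12.3 at P2, then 16.5 and 45.9 at P4, then 35.8 and 38.3 at P10, and 3.09 and 3.27 at P28. Peak 3 (chr11:119150190-119150450), in an intron, had 1.93 and 5.1 at P2, then 1.95 and 13.7 at P4, then 12.7 and 23.4 at P10, and 0.594 and 1.25 at P28. Peak 1 (chr11:119120901-119121092), between genes, had 24.3 and 20.8 at P2, then 17.9 and 59.5 at P4, then 50.9 and 48.1 at P10, and 17.8 and 19.6 at P28. Peaks 2 and 3 fell from P10 to P28 (log2 difference -3.19, SE 0.56, adjusted p = 0.000652, and log2 difference -3.27, SE 0.63, adjusted p = 0.00161). Peak 1, which was the strongest of the 3, had -1.36 (adjusted p = 0.0871) and was not called. Whether peak 1 differs from the other 2 was not tested.

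Mir148a (chr6:51270866-51271133) had 3.29 and 2.13 at P2, then 1.9 and 10.1 at P4, then 15.9 and 16.8 at P10, and 2.89 and 1.83 at P28. Mir7056 (chr7:47074046-47074454) had 2.46 and 0.930 at P2, then 3.73 and 2.79 at P4, then 6.93 and 6.71 at P10, and 0.379 and 0.400 at P28. Mir6995, in an intron of Sh3pxd2a, had 5.79 and 7.65 at P2, then 8.76 and 19.7 at P4, then 12.7 and 12.2 at P10, and 1.78 and 0.941 at P28. The falls were log2 difference -2.38, SE 0.57, adjusted p = 0.00521, log2 difference -2.49, SE 0.46, adjusted p = 0.000821 and log2 difference -2.53, SE 0.54, adjusted p = 0.00231. By reads, Mir7056 had a ratio of 17.5 (exact 95% interval 4.54 to 149.5) and Mir6995 one of 9.04 (exact 95% interval 2.82 to 46.2). These 3, with Mir144, Mir138-1, Mir9-3hg, Mir3078, Mir6417, Mir6934 peaks 2 and 3, Mir124-2hg peak 2 and Mir598 peak 1, are the 12 of the 44 falls that were kept without any 1 library.

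**Figure D4:**
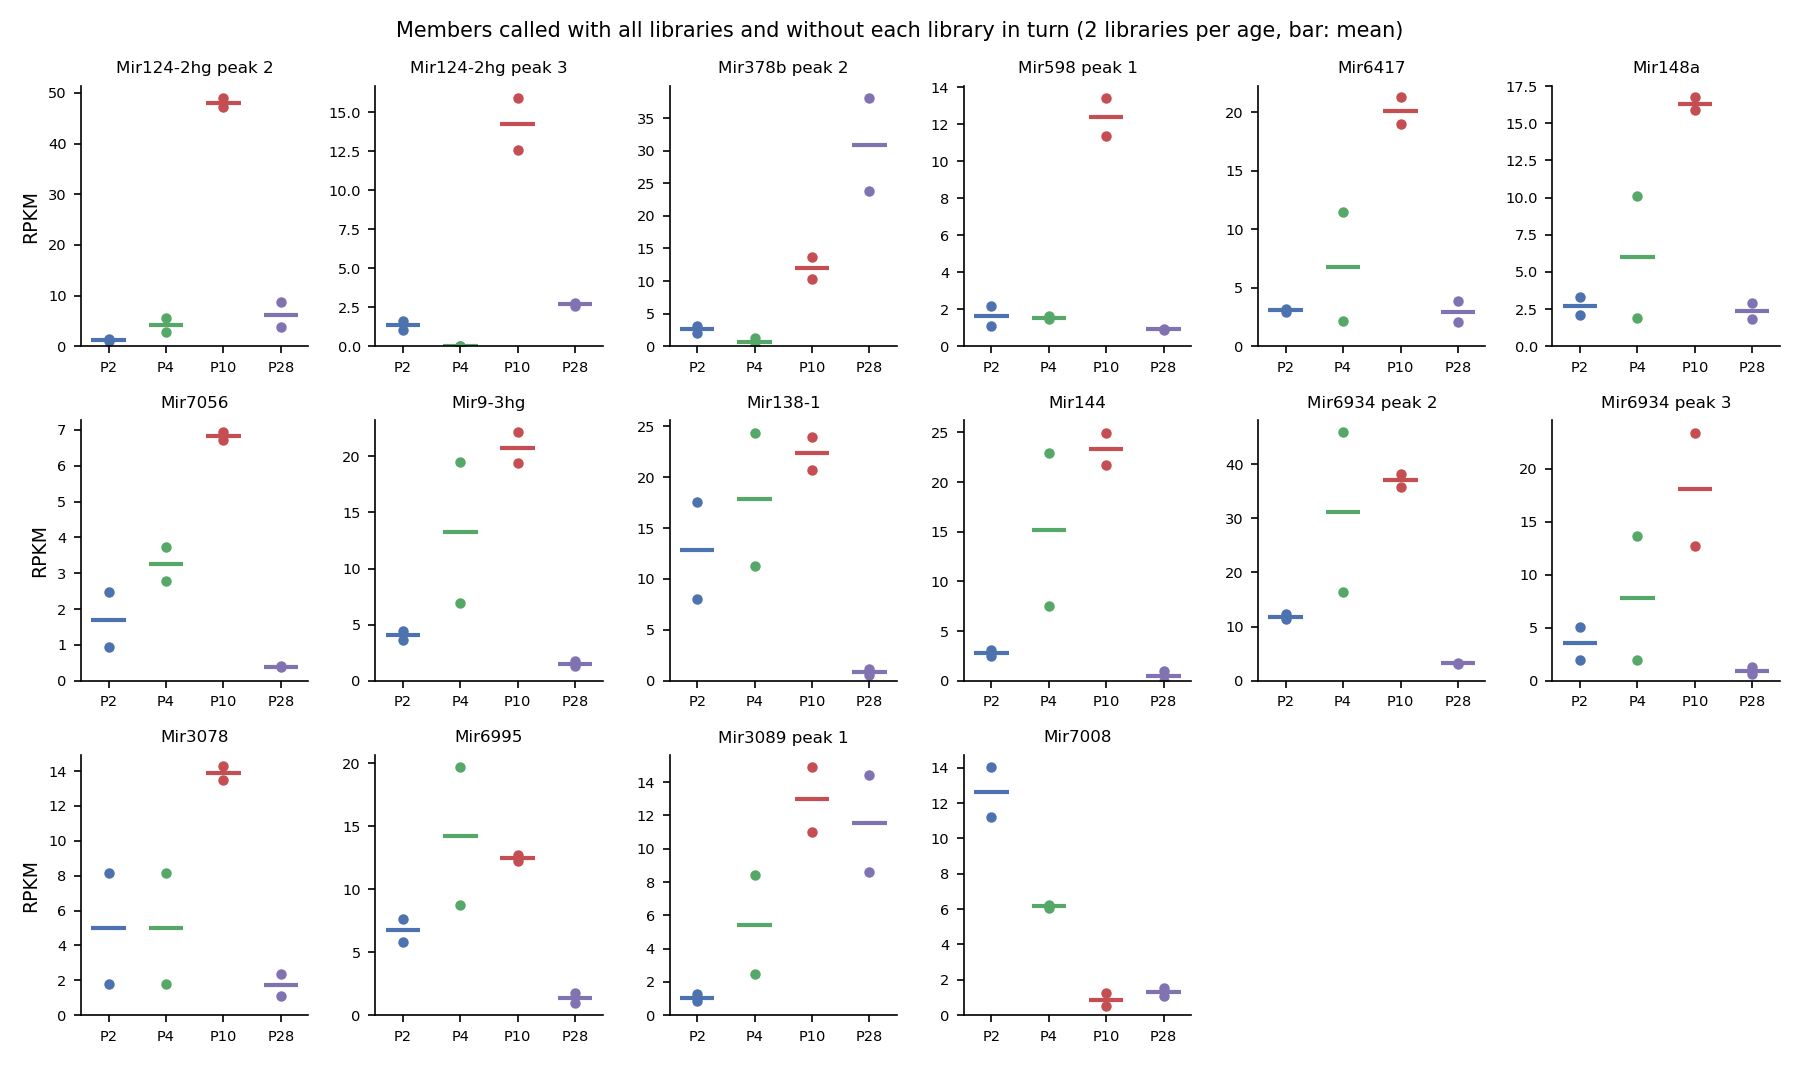
RPKM in each of the 2 libraries per age, with a bar for their mean, at the 16 members whose call in at least 1 comparison was kept with all libraries and without each of the 8 in turn. In Mir144, Mir138-1, Mir7056 and Mir6934 peak 3 the P28 libraries lie between 0 and 1.25 RPKM; Mir378b peak 2 is highest at P28 and Mir7008 at P2.

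The other falls at P28 were each lost when at least 1 of the 8 libraries was left out. Mir7048, in an intron of Dedd2, had 5.01 and 0 at P2, then 4.33 and 21.9 at P4, then 28.6 and 41.8 at P10, and 3.52 and 4.65 at P28. Mir6951, in the noncoding gene G930009F23Rik, had 6.16 and 4.65 at P2, then 5.52 and 17.5 at P4, then 20.1 and 19.7 at P10, and 2.52 and 4.00 at P28. Mir1894 peak 1, over the hairpin in Ppp1r10, had 14.5 and 15.7 at P2, then 23.0 and 37.1 at P4, then 30.1 and 33.7 at P10, and 7.64 and 9.15 at P28. The differences were -2.82 (adjusted p = 0.0125), -2.31 (adjusted p = 0.00601) and -1.81 (adjusted p = 0.0185). Mir1894 peak 2, within 53 bases of a Ppp1r10 start, had 36.4 and 22.8 at P2, then 18.9 and 29.5 at P4, then 33.2 and 30.4 at P10, and 20.5 and 13.5 at P28 and was not called, with its highest value in a P2 library.

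Mir190a, in the 3' UTR of Tln2, had 2.76 and 4.86 at P2, then 4.63 and 19.3 at P4, then 23.6 and 18.2 at P10, and 6.22 and 5.38 at P28. Mir3091, over the start of Rps21, had 5.38 and 1.93 at P2, then 5.16 and 9.87 at P4, then 18.9 and 17.8 at P10, and 6.61 and 2.66 at P28. Mir3066, in Nol10, had 0.980 and 3.70 at P2, then 5.93 and 9.45 at P4, then 20.2 and 20.9 at P10, and 6.63 and 5.73 at P28. These fell, with log2 differences of -1.68 (adjusted p = 0.0421), -1.87 (adjusted p = 0.0208) and -1.59 (adjusted p = 0.0387). Mir3075, in an intron of Zmiz1, had 1.30 and 2.45 at P2, then 4.91 and 8.46 at P4, then 10.6 and 16.7 at P10, and 6.79 and 2.11 at P28. Mir6928, over its hairpin in Atp6v0a1, a proton pump gene, had 1.27 and 1.91 at P2, then 2.55 and 7.18 at P4, then 8.71 and 18.2 at P10, and 3.89 and 3.29 at P28. They fell, with log2 differences of -1.54 (adjusted p = 0.0456) and -1.57 (adjusted p = 0.0342), and in each P10 replicate 4 was the highest library.

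Mir184, a microRNA of the eye's lens and cornea, had a peak 5294 bp away with 0 and 2.24 at P2, then 1.49 and 6.72 at P4, then 13.9 and 8.07 at P10, and 0.911 and 1.93 at P28. It fell (log2 difference -2.30, SE 0.59, adjusted p = 0.00991; ratio 7.58 (exact 95% interval 2.32 to 39.1)). Mir692-2 peak 1, in an intron of Grik3 (a kainate receptor subunit), had 2.88 and 8.69 at P2, then 5.80 and 24.1 at P4, then 5.04 and 11.4 at P10, and 0.707 and 1.5 at P28 and fell, with a log2 difference of -2.07 (adjusted p = 0.0223) although P4 replicate 4 was its highest library. Its ratio by reads was 7.87 (exact 95% interval 2.42 to 40.5).

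The 7 falls not yet given were at weak peaks away from starts. Mir6344 had 1.70 and 0 at P2, then 2.15 and 3.38 at P4, then 5.32 and 7.17 at P10, and 0.523 and 2.21 at P28. Mir1953 had 2.99 and 1.5 at P2, then 3.51 and 4.51 at P4, then 8.10 and 5.92 at P10, and 2.45 and 0 at P28. Mir6380 had 4.44 and 3.09 at P2, then 0.344 and 5.42 at P4, then 5.55 and 5.07 at P10, and 1.26 and 0.887 at P28. Their differences were -1.70 (adjusted p = 0.0214), -2.10 (adjusted p = 0.00774) and -1.61 (adjusted p = 0.0423), and P4 replicate 3 was the lowest library at Mir6380. Mir6236 had 0.923 and 2.09 at P2, then 0.930 and 5.75 at P4, then 6.93 and 8.68 at P10, and 2.27 and 1.20 at P28. Mir3968 had 4.55 and 2.29 at P2, then 3.83 and 4.30 at P4, then 10.4 and 11.3 at P10, and 2.80 and 2.96 at P28. They fell, with log2 differences of -1.71 (adjusted p = 0.0249) and -1.61 (adjusted p = 0.0225). Mir5127 peak 1 had 1.55 and 2.34 at P2, then 2.73 and 2.64 at P4, then 5.33 and 3.84 at P10, and 1.43 and 0.504 at P28. Mir5127 peak 2 had 1.94 and 2.34 at P2, then 4.69 and 7.47 at P4, then 12.6 and 8.45 at P10, and 2.38 and 2.02 at P28. These 2 fell, with log2 differences of -1.53 (adjusted p = 0.0193) and -1.83 (adjusted p = 0.0106). All of these calls were lost without P10 replicate 1, with adjusted p up to 0.227.

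Early peaks stood apart from these: 5 fell from P4 to P10, and all 5 were in the P4 list and in neither later list. Peaks known only from early lists are likely to read lower later, so their list presence does not back the falls. Mir205, a microRNA of epithelia, had a peak 8975 bp upstream (chr1:193516505-193516721) with 8.71 and 10.5 at P2, then 10.5 and 22.4 at P4, then 2.90 and 2.88 at P10, and 1.43 and 1.51 at P28. Mir7008, in the 3' UTR of Prkci, the gene of an atypical protein kinase C of cell polarity, had 14.0 and 11.2 at P2, then 6.25 and 6.09 at P4, then 0.517 and 1.23 at P10, and 1.52 and 1.07 at P28 (chr3:31050365-31050669). Mir6387, 234747 bp from the hairpin start, had 11.9 and 6.43 at P2, then 10.3 and 11.6 at P4, then 1.06 and 0.843 at P10, and 3.14 and 0 at P28 (chr12:15566207-15566354). At these 3 all libraries of P2 and P4 stood above all libraries of P10 and P28.

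The falls from P4 to P10 were log2 difference -2.08, SE 0.52, adjusted p = 0.00924 for Mir205, log2 difference -1.96, SE 0.47, adjusted p = 0.00713 for Mir7008 and log2 difference -2.61, SE 0.56, adjusted p = 0.00406 for Mir6387. The 3 were also lower at P28 than at P2 (-2.10 (adjusted p = 0.00971), -2.57 (adjusted p = 0.00103) and -2.27 (adjusted p = 0.0107)). By reads, Mir6387 had 24 reads against 2 at P4 and P10, a ratio of 11.6 (exact 95% interval 2.88 to 101). The P28 against P2 call of Mir7008 was kept without any 1 library, whereas its P10 against P4 call was lost without P4 replicate 3 and P10 replicate 1 (adjusted p up to 0.155). The call of Mir205 was lost without P10 replicate 1 and P10 replicate 4 (adjusted p up to 0.106), and that of Mir6387 without P4 replicate 3 (adjusted p up to 0.0798). Of the 5 falls from P4 to P10, 5 were kept after centring, and 0 in all 8 fits without 1 library, with the pseudocount of 0.1 or with the replicate block.

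The other 2 falls from P4 to P10 rest on few reads. Mir378b peak 1, in Msi2, had 5.00 and 0.755 at P2, then 4.03 and 5.67 at P4, then 1.25 and 0 at P10, and 3.07 and 1.95 at P28, a ratio of 8.69 (exact 95% interval 2.08 to 77.2) and a difference of -1.95 (adjusted p = 0.0192). It lay in the same gene as the Mir378b peak that rose at P10. Mir551b, in Egfem1, had 0.659 and 0.996 at P2, then 3.32 and 2.99 at P4, then 0 and 1.31 at P10, and 0 and 0.857 at P28 and a difference of -1.45 (adjusted p = 0.0402), with a ratio of 4.34 (exact 95% interval 0.899 to 41.3) whose interval includes 1.

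Between P2 and P28, members beyond those already given were few. Mir3089 peak 1 (chr2:30699879-30700184) had 0.823 and 1.24 at P2, then 2.49 and 8.40 at P4, then 14.9 and 11 at P10, and 8.61 and 14.4 at P28 and was higher at P28 (log2 difference 2.59, SE 0.55, adjusted p = 0.00369; 44 reads against 4), kept without any 1 library. Mir3089 peak 2, closer to the hairpin, had 5.70 and 6.69 at P2, then 5.74 and 5.02 at P4, then 3.96 and 5.64 at P10, and 1.56 and 1.65 at P28 and was lower at P28 (log2 difference -1.47, SE 0.47, adjusted p = 0.0425). The 2 peaks of this gene were thus called in opposite directions, and the second call was lost without P2 replicate 3, P2 replicate 4, P10 replicate 1, P10 replicate 4, P28 replicate 3 and P28 replicate 4 (adjusted p up to 0.191).

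Mir7655, in Mllt10, had 0 and 1.60 at P2, then 1.60 and 4.80 at P4, then 1.99 and 3.67 at P10, and 5.21 and 5.50 at P28 and was higher at P28 (log2 difference 1.98, SE 0.52, adjusted p = 0.0146), at a ratio of 8.40 (exact 95% interval 1.98 to 75.3). Mir3962, between genes, had 2.34 and 0.885 at P2, then 1.18 and 1.99 at P4, then 3.67 and 1.74 at P10, and 5.76 and 6.85 at P28 and was higher by 1.54 (adjusted p = 0.0347). Both were in the P28 list only, which is no separate support for these calls. Mir6995 was also lower at P28 than at P2 (-1.72 (adjusted p = 0.0368)).

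The other 51 members were called in none of the 4 comparisons, were not among the 12 strongest and were not on the list of retinal microRNAs. Of them, 12 were called by the F test. Their means ran from 0.282 to 12.9 RPKM at P2 (median 2.00), from 0.608 to 16.6 at P4 (3.18), from 1.03 to 34.1 at P10 (5.1) and from 0.591 to 15.7 at P28 (3.47). The lists of P2, P4, P10 and P28 held 3, 16, 43 and 17 of them, and 41 had their highest mean at P10. The strongest at P10 were Mir704 peak 4 with a mean of 34.1 RPKM, Mir704 peak 3 with 25.8 and Mir8098, at the start of Wdfy2, with 24.8. Among them 19 lay within 1 kb of a start, Mir8114 at Glul included, with means of 3.97, 6.12, 8.97 and 5.26 RPKM in order of age. Mir7075, at the start of Terf2, was 1 of 5 with the highest mean at P28 (3.83 RPKM).

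The genes that make microRNAs and carry out their action were read at their strongest peak within 50 kb. Of 38 such genes, 20 had a peak, 19 of these at a promoter. Peaks more than 1 kb from a start raise the shares of all peaks given below. Of such peaks, 26% rose from P4 to P10, 36% fell from P10 to P28 and 12% rose from P2 to P28. Promoter peaks were thus called less often than all peaks, so those shares are no matched background for these genes. From P4 to P10, 2 rose and 0 fell, beside 15.6% and 1.51% of all peaks, with a median log2 difference of 0.81 beside 0.70 over the strongest peak of every gene. From P10 to P28, 2 fell and 0 rose (beside 20.7% and 1.29% of all peaks, median -0.81 beside -0.61), and from P2 to P28, 2 rose and 0 fell (beside 9.64% and 3%, median 0.65 beside 0.61). No call was made between P2 and P4.

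Tnrc6b, of the GW182 proteins that bring silencing factors to Argonaute, had 3.57 and 3.37 RPKM at P2, then 9.46 and 21.8 at P4, then 50.3 and 47.8 at P10, and 20.3 and 16.3 at P28. It rose from P4 to P10 (1.70, adjusted p = 0.0349) and was higher at P28 than at P2 (2.10, adjusted p = 0.014). Cnot7, a deadenylase of the CCR4-NOT complex, rose at P10 (1.79, adjusted p = 0.0131) and fell at P28 (-1.53, adjusted p = 0.0236). Adarb1, an RNA editing enzyme, fell at P28 (-1.57, adjusted p = 0.0221), and Zswim8, which takes part in microRNA decay, was higher at P28 than at P2 (1.59, adjusted p = 0.0334). The calls of Cnot7, Adarb1 and Zswim8 rest on few reads. Cnot7 had 17 reads at P10 against 4 at P4 and 4 at P28. Adarb1 had 19 at P10 against 4 at P28, and Zswim8 had 16 at P28 against 3 at P2. Whether the calls of these genes hold with a library left out was not examined. The processing genes Drosha and Dgcr8 had promoter peaks called in none of the 4 comparisons, at means of 3.69 and 3.78 RPKM at P10. Snd1, of a nuclease in the silencing complex, had the highest level on the list, with a mean of 63.1 RPKM at P10, and was not called in them either.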

How the data were processed

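Tools in the submitters' processing notes are MACS2 2.2.5, bedtools 2.29.0, Bowtie2 2.3.5.1, Picard 2.20.8, Trimmomatic 0.38 and SAMtools 1.9, and the builds are GRCm38.p6 and ASM584v2. No role or order comes with them. The deposited quantitation table holds RPKM, as its values show, for 8996 peaks in 8 libraries. The deposited peak lists, 1 per age, give a signal and a score for each peak, both the authors' own. They were used to find presence (an overlap of 1 bp or more) and for a stricter score of 830 or more. Place, distance and symbol are the authors' annotation. The sources used here do not give how the authors set library scales or combined replicates for the lists.

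The widths that divide the deposited RPKM slip by 39 rows from one column to the next, which 9035 recycled widths would give. In P2 replicate 4 this changed the divisor by more than 1.5 times for 77 of the 139 members. Reads were recovered as whole numbers (tolerance 0.001) for 100% of values, and RPKM was rebuilt with each peak's own width. Intervals and floors (3 reads) cover counting error only.

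The test was limma 3.58.1 (R 4.3.3, with trend and robust settings) on log2(RPKM + 1). One model of age held the 8 libraries, leaving 4 residual degrees of freedom. P-values were adjusted across the whole table by Benjamini-Hochberg, and those under 0.05 count as called. A fold on this scale understates the change of weak peaks. The script was tested on simulated data. Per-library values are given for the 88 members that were called in any of the 4 comparisons, were among the 12 strongest or were on a list of retinal microRNAs. The others are given by range. The members and lists were chosen with earlier results of these data known. Alternatives were a pseudocount of 0.1, peaks at or above the median mean, libraries centred on their median, a replicate block, limma-voom on recovered reads, the values as deposited, and leaving out each library. Sequences, gene types and promoter windows are from RefSeq (GRCm38.p6). Other work was done in Python 3.11.15 (pandas 2.3.3, NumPy 2.4.6, Matplotlib 3.10.9, SciPy 1.17.1).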

Additional observations from a re-analysis of the deposited data

How the results depend on the processing

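The count of called members depended on several settings. For P10 against P4 it was 33, and it was 1 with a pseudocount of 0.1, 17 with centred libraries, 4 with the replicate block, 51 with limma-voom and 15 with the values as deposited. For P28 against P10 it was 44, against 12 with the smaller pseudocount, 29 with centred libraries, 12 with the replicate block and 20 as deposited. For P28 against P2 it was 12, against 4 with the smaller pseudocount and 4 as deposited. For P4 against P2 it was 0, and 2 with only peaks at or above the median mean. For any age it was 86, against 36 with the smaller pseudocount, 36 with centred libraries, 40 with the replicate block and 44 as deposited. Leaving out 1 library gave 0 to 20 calls for P4 against P2, 6 to 67 for P10 against P4, 16 to 63 for P28 against P10, 6 to 30 for P28 against P2, and 38 to 94 for any age. The cause of these changes was not tested, beyond the smaller number of libraries. At Mir182 the P28 against P10 difference was reversed with the values as deposited, at 0.246 (adjusted p = 0.892).

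Of the 89 calls of named members, 82 stayed called with limma-voom, 49 after centring, 25 with the replicate block and 17 with the pseudocount of 0.1. Deviations of same-numbered libraries of P2, P4 and P28 from their age means had correlations across peaks of 0.0853, 0.05 and 0.0291. With few reads per peak, low correlations cannot exclude a pairing, so whether the numbers pair libraries is not known. With at least 0.5 of a member's width covered, presence in the lists was 12, 53, 117 and 45 for P2, P4, P10 and P28, and with a score of 830 or more 12, 42, 98 and 33. With 3 kb in place of 1 kb, 47 members lay near a start. With a median of 4 to 17 reads per member and library, small changes were not detectable.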

Other observations

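Among members without a call in any of the 4 comparisons, some overlapped the start of a protein-coding gene. The peak over the starts of Wdfy2 and Mir8098 had means of 6.36, 15.8, 24.8 and 8.20 RPKM in order of age, and that over Glce and Mir5133 had 2.05, 4.60, 10.1 and 4.08. At Mir8101 and Hdac5 the highest mean was at P4, with 1.94, 6.30, 5.43 and 3.81 RPKM. Of the 13 peaks over a hairpin, 3 were called in any of the 4 comparisons (Mir3091, Mir6928 and Mir1894 peak 1). All 13 were promoter peaks, and of the 35 members within 1 kb of a start, these included, 13 were called. The shares of all members (49.6%) and of all peaks (38.5%) include peaks away from starts and are no matched background. The 13 peaks had median means of 2.44, 4.86, 8.97 and 4.64 RPKM in order of age.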
